A study of Mus musculus with 12 samples.

Results

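The genes Nr1d1, Nr1d2 and Thra were described across the livers of 3 groups of mice. They were taken by name from the deposited table of RNA levels, which held 48537 genes, and each of the 3 names had 1 row. The data were RNA-seq of 12 livers collected at zeitgeber time 10, which is 10 h after lights on. The 4 control livers have a wildtype genotype label and YFP in their titles. The 4 livers of the knockout group are labelled as a double knockout (DKO) of the REV-ERBs, also with YFP in their titles. The 4 re-expressing livers have titles that name DKO and REV-ERBalpha-WT, and their genotype label says that they re-express REV-ERBalpha. In the table the columns of the 3 groups are named YFP, YFP_Cre and YFP_WT in that order, and among these names the recombinase Cre appears for the knockout group alone. Strain, age, sex, the promoter that drove Cre or REV-ERBalpha, and the part of each gene that was deleted are not given in the sources used here.

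Nr1d1 and Nr1d2 encode REV-ERBalpha and REV-ERBbeta, nuclear receptors that bind heme and repress transcription through the NCOR1 and HDAC3 corepressor complex. In the circadian clock they compete with the activating ROR receptors for the same DNA elements, and so repress Arntl, whose product BMAL1 in turn drives both REV-ERB genes with CLOCK through E-boxes. In liver they also act on genes of lipid, glucose and bile acid metabolism. Thra encodes thyroid hormone receptor alpha, a nuclear receptor with hormone-binding and non-binding isoforms, and the end of the gene lies on the opposite strand of the end of Nr1d1.

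In the GENCODE M21 annotation on mm10, Nr1d1 (ENSMUSG00000020889.11) occupies chr11:98767932-98775333 on the minus strand, with 3077 exon bases over 2 transcripts. Thra (ENSMUSG00000058756.13) occupies chr11:98740638-98769006 on the plus strand, with 4614 exon bases over 9 transcripts. Nr1d2 (ENSMUSG00000021775.11) is on another chromosome, at chr14:18204054-18239127 on the minus strand, with 5409 exon bases over 4 transcripts. For all 3 genes the merged exon length equals the length in the deposited table. The Nr1d1 and Thra genes share 1075 bases, and their exons share 1 run of 263 bases at chr11:98768157-98768419. That run is 8.55% of the exon bases of Nr1d1 and 5.70% of those of Thra. All 263 bases are coding in Thra, and 197 are coding in both genes.

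**Figure D1:**
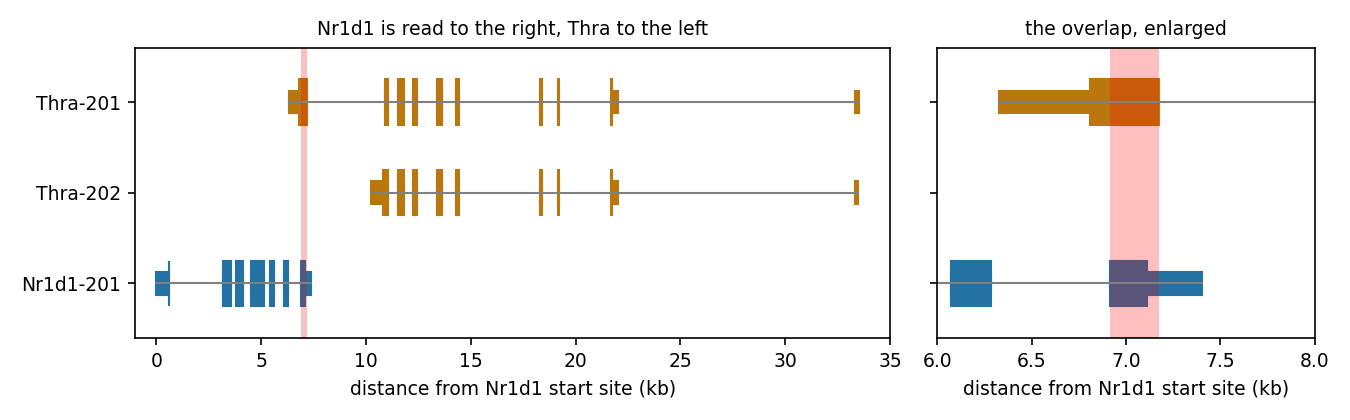
Exons of the protein-coding Nr1d1 transcript (blue, bottom) and of 2 Thra transcripts (brown, middle and top) by distance from the annotated Nr1d1 start site in kb; tall boxes are coding, low boxes are untranslated, grey lines are introns, and the red band is the 263 shared exon bases. The band crosses the last exon of Nr1d1 and the last exon of the top Thra transcript, and no exon of the middle one.

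The stretch of 197 bases that is coding in both genes is shown, with the stop codon of Nr1d1 next to it, because reads from it could be assigned to either gene. It is chr11:98768220-98768419 of mm10, written on the plus strand, which is the coding strand of Thra. The capitals mark the reverse complement of the Nr1d1 stop codon, TGA.
Thra and Nr1d1 coding overlap: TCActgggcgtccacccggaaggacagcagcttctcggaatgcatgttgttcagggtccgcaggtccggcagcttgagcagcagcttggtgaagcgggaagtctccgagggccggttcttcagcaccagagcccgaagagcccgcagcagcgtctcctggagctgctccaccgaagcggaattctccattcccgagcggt

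Nr1d1 and Nr1d2 are paralogs, so their annotated transcripts were compared for stretches that a read could not tell apart. The longest run shared by the protein-coding Nr1d1 transcript, of 2721 bases, with any of the 4 Nr1d2 transcripts was 14 bases long, in coding exon 3 of 8 of Nr1d1, at chr11:98771459-98771472 of mm10 on the minus strand. None of the 2672 windows of 50 bases and none of the 2702 windows of 20 bases of that Nr1d1 transcript occurred in an Nr1d2 transcript.
Longest run shared by Nr1d1 and Nr1d2: ttccactatggagt

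The 250 bases before the RefSeq start of each REV-ERB gene are shown because both genes are themselves clock targets. They are from GRCm38.p6, at chr11:98775378-98775627 for Nr1d1 and chr14:18239107-18239356 for Nr1d2, both on the minus strand. Capitals mark the ROR half-site AGGTCA.
Nr1d1 promoter: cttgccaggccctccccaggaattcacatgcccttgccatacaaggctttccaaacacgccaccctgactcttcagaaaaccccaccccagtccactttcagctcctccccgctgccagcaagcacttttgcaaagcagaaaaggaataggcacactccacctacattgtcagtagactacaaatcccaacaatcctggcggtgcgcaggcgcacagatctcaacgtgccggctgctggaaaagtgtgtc
Nr1d2 promoter: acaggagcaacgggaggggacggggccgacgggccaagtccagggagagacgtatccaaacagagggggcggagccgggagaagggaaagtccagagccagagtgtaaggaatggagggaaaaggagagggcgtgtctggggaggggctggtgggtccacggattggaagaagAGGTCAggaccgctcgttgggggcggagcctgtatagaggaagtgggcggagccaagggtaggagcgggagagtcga

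On both strands, 3 motifs were searched: the E-box CACGTG, the core of the D-box TTANNTAA, and AGGTCA. The Nr1d1 window held none of them. The Nr1d2 window held 1 AGGTCA, which begins 77 bases before the start. Of 32536 distinct promoter windows of the same length, 6.04% held the E-box, 5.41% the D-box core and 14.0% AGGTCA, so the match in Nr1d2 is of a common kind. These letters describe a window of 250 bases only.

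The libraries held between 5621667 and 6906221 reads assigned to genes, recovered from the steps in which the values come, and between 22240 and 23289 genes had a read. In each library Nr1d1 had 409 to 1572 reads, Nr1d2 938 to 1451 and Thra 76 to 129. The summed level of 8 hepatocyte markers was 42285 to 49153 TPM, a unit of transcript abundance per length scaled to 1 total, in control livers, 45042 to 49074 TPM in DKO-labelled livers and 44391 to 49454 TPM in re-expressing livers. No marker of hepatocytes, cholangiocytes, Kupffer cells, stellate cells, sinusoidal endothelium or red blood cells that was in the table was at 0 in every liver. In whole tissue, fewer cells of a type and less RNA per cell cannot be told apart. The labels describe the livers as biological replicates.

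Nr1d1 RNA was not lower in the DKO-labelled livers than in control livers, and it was highest in the re-expressing livers. In control livers 1 to 4 it was at 64.1, 69.7, 64.9 and 76.2 TPM. In the DKO-labelled livers it was at 78.7, 84.7, 91.7 and 74.8 TPM, and in re-expressing livers at 171, 203, 174 and 217 TPM. All 4 re-expressing livers were above all other livers, while the fourth DKO-labelled liver lay within the range of the controls and the other 3 lay above it. The group means were 68.7 ± 5.53 TPM in control livers, 82.5 ± 7.39 TPM in DKO-labelled livers and 191 ± 22.4 TPM in re-expressing livers (SD, n = 4 in each). The coefficients of variation were 8.05%, 8.96% and 11.7%, against 4.67%, 4.22% and 2.72% from counting reads alone.

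**Figure D2:**
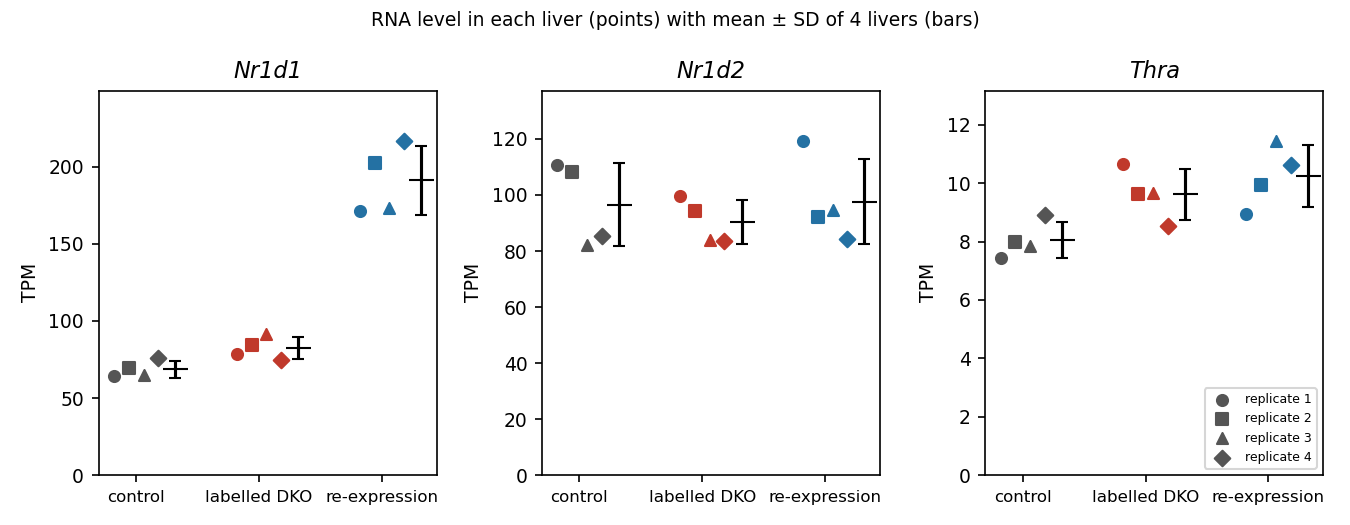
TPM of Nr1d1, Nr1d2 and Thra in each of the 12 livers, with a marker shape for each replicate number and the mean ± SD of the 4 livers of a group in black; all axes start at 0. Nr1d1 in re-expressing livers, at 171 to 217 TPM, stands above the other 2 groups, while Nr1d2 overlaps between all 3 groups.

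Differences were tested with limma, a linear model fitted here to log2(TPM + 1) of the 17957 genes with a mean of at least 1 TPM, and a gene was called at a Benjamini-Hochberg adjusted p under 0.05 over all of them. All 3 genes passed this filter. Between re-expressing livers and DKO-labelled livers, Nr1d1 rose by 1.20 ± 0.10 (log2, SE; 95% interval 0.99 to 1.41; limma, adjusted p = 0.000452). The ratio of the mean TPM was 2.32, and the lowest re-expressing liver was 1.87 times the highest DKO-labelled liver. Of all genes tested, 0.0724% were called in this comparison, 0.0278% higher and 0.0446% lower, and 6.19% had an unadjusted p under 0.05. Nr1d1 was 1 of the 5 genes called higher. Without DKO-labelled liver 2, 3 or 4, or without re-expressing livers 3 or 4, 1 gene was called higher, 2 genes without DKO-labelled liver 1 and 3 without re-expressing liver 1, and Nr1d1 was called each time. It was at rank 2 of 17957 by p and at rank 160 by size of rise. In 4.25% of all genes these groups did not overlap, and 2.09% were higher in all re-expressing livers. An exact two-sided permutation test over livers gave p = 0.0286 for Nr1d1, the smallest that 4 against 4 livers allow. With Benjamini-Hochberg adjustment over the 9 exact tests of the 3 genes this permutation p was 0.0857.

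Against control livers, Nr1d1 was higher in re-expressing livers by 1.46 ± 0.10 (log2, SE; 95% interval 1.25 to 1.67; limma, adjusted p = 1.28e-05). The means differed 2.78-fold, and the lowest re-expressing liver was 2.25 times the highest control liver. Here 1.82% of all genes were called, 1.16% higher and 0.663% lower, and 7.28% had groups that did not overlap, 4.29% with re-expressing livers higher. The exact permutation p was again 0.0286, and 0.0857 adjusted over the 9 tests. Nr1d1 was at rank 8 by p and at rank 139 by size of rise. Its RNA in re-expressing livers was thus above the control level in every liver.

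Nr1d1 was not called between DKO-labelled and control livers. The difference was 0.26 ± 0.10 (log2, SE; 95% interval 0.05 to 0.47; limma, adjusted p = 0.173), with an unadjusted p of 0.0208 and an exact permutation p of 0.0571. In this comparison 5.33% of all genes were called, 2.99% higher and 2.34% lower, and 18.4% had an unadjusted p under 0.05. The groups did not overlap in 11.5% of all genes, and in 6.13% all DKO-labelled livers were higher. The interval, which is not adjusted for the number of genes, lies above 0. A level summed over all exons does not show whether the deleted part is missing from the RNA, so it does not check the label. This also means that the RNA counted as Nr1d1 in these livers cannot be told apart into intact and deleted forms. The titles of the re-expressing livers name DKO too, so the same limit holds for their Nr1d1 level. It also holds for Nr1d2 in both groups. In re-expressing livers, Nr1d1 RNA from its own locus and from an introduced copy cannot be told apart either.

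Nr1d2 RNA did not differ between the groups beyond the spread within them. It was at 111, 108, 82.3 and 85.3 TPM in control livers 1 to 4, at 99.6, 94.5, 84.0 and 83.7 TPM in the DKO-labelled livers, and at 119, 92.0, 94.8 and 84.4 TPM in re-expressing livers. The groups overlapped, with the DKO-labelled livers within 83.7 to 99.6 TPM and the other groups reaching 111 and 119 TPM, and the highest liver of all was the first re-expressing liver. The means were 96.6 ± 14.9, 90.4 ± 7.91 and 97.7 ± 15.1 TPM in control livers, DKO-labelled livers and re-expressing livers (SD, n = 4 in each). The coefficients of variation of 15.4%, 8.74% and 15.5% were about as large as or larger than those of Nr1d1, although counting reads gives only 2.91%, 2.99% and 2.83%.

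The difference in Nr1d2 between DKO-labelled livers and control livers was -0.09 (log2; 95% interval -0.36 to 0.19; limma, adjusted p = 0.792; exact permutation p = 0.571). Between re-expressing livers and DKO-labelled livers it was 0.10 (95% interval -0.18 to 0.38; limma, adjusted p = 1; exact permutation p = 0.486). Between re-expressing and control livers it was 0.02 (95% interval -0.26 to 0.29; limma, adjusted p = 0.989; exact permutation p = 0.971), and this sign turned without control liver 3 or 4 or re-expressing liver 1, to -0.06, -0.04 and -0.08. The intervals allow changes in either direction, with bounds that run from a ratio of 0.777 to one of 1.30, so these data do not show that the levels were equal. The labels give the re-expressing livers REV-ERBalpha alone, and of the 2 REV-ERB genes only Nr1d1 was called in a comparison with them.

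Control livers fell into pairs in Nr1d2, with livers 1 and 2 at 111 and 108 TPM and livers 3 and 4 at 82.3 and 85.3 TPM. The libraries of livers 1 and 2 held 6479312 and 6830565 reads, and those of livers 3 and 4 held 5640091 and 5621667. In DKO-labelled livers 1 to 4 Nr1d2 was at 99.6, 94.5, 84.0 and 83.7 TPM, with 6906221, 6133682, 5945044 and 5832712 reads. In re-expressing livers 1 to 4 it was at 119, 92.0, 94.8 and 84.4 TPM, with 6272566, 6416801, 6831039 and 6557984 reads. The part of depth in the Nr1d2 values was not tested. Without control livers 1 and 2 the difference in Nr1d2 between DKO-labelled livers and control livers turned to 0.11 (limma, adjusted p = 0.732), and without control livers 3 and 4 it was -0.28 (limma, adjusted p = 0.223). The pairs were set apart after seeing the data and differ in Nr1d2 itself, so the direction of these shifts was fixed by the choice. Nr1d2 was not called in either case. For Nr1d1 the same choices gave 0.22 and 0.29, both with the direction of the full comparison.

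Thra RNA was far lower than that of the REV-ERB genes, and all re-expressing livers were above all control livers by a small margin, without a call. Control livers 1 to 4 had 7.45, 7.99, 7.86 and 8.91 TPM, DKO-labelled livers had 10.7, 9.63, 9.67 and 8.53 TPM, and re-expressing livers had 8.93, 9.95, 11.5 and 10.6 TPM. The fourth control liver and the first re-expressing liver were next to each other at 8.91 and 8.93 TPM, so these groups did not overlap, with a ratio of 1.00 between the livers nearest to each other. The means were 8.06 ± 0.616, 9.62 ± 0.871 and 10.2 ± 1.07 TPM in the 3 groups in that order (SD, n = 4 in each). With 76 to 129 reads a library, counting alone gives coefficients of variation of 11.0%, 9.95% and 9.47%, and those observed were 7.64%, 9.05% and 10.4%.

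Thra was not called in any of the 3 comparisons. Re-expressing livers differed from control livers by 0.31 ± 0.10 (log2, SE; 95% interval 0.08 to 0.54; limma, adjusted p = 0.202), with an exact permutation p of 0.0286 (0.0857 adjusted over the 9 tests of the 3 genes). Livers labelled DKO differed from control livers by 0.23 ± 0.10 (95% interval 0.00 to 0.46; limma, adjusted p = 0.264; exact permutation p = 0.0571). Between re-expressing livers and DKO-labelled livers the difference was 0.08 (95% interval -0.15 to 0.31; limma, adjusted p = 1; exact permutation p = 0.429). Among all genes, 12.5% had an unadjusted p under 0.05 by limma between re-expressing and control livers. Thra, with an unadjusted p of 0.0117 by limma, was at rank 1039 of 17957 by p there. These 2 groups did not overlap in 7.28% of all genes, and in 4.29% all re-expressing livers were higher.

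**Figure D3:**
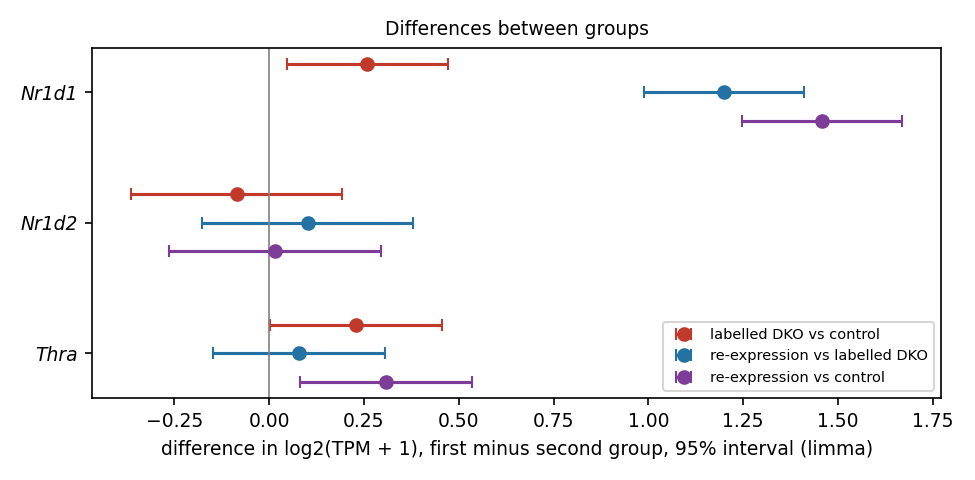
Differences in log2(TPM + 1) between groups for the 3 genes, first minus second group, with 95% intervals from limma (n = 4 livers a group). The 2 comparisons with re-expressing livers place Nr1d1 at 1.20 and 1.46, and every interval of Nr1d2 spans 0.

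Because Thra and Nr1d1 share exon bases, the differences in their reads were set side by side, with each library scaled to the mean depth of the 12. Between re-expressing livers and DKO-labelled livers, the mean number of reads per library differed by 736 for Nr1d1 and by 5.29 for Thra. If Nr1d1 reads had lain evenly over its exons, 62.9 of the 736 would have come from the shared run. That number takes the merged exons of the annotated Nr1d1 transcripts, and the part of shared reads in either difference was not tested. Between re-expressing and control livers the differences were 834 reads for Nr1d1 and 22.4 for Thra, with 71.3 from the shared run by the same count. The strand setting of the authors' counting, and how reads in shared exons were handled, are not given in the sources used here.

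Ratios within a liver do not depend on how libraries were scaled. Nr1d1 over Nr1d2 was at 0.579, 0.645, 0.789 and 0.893 in control livers, at 0.790, 0.897, 1.09 and 0.894 in DKO-labelled livers, and at 1.43, 2.20, 1.83 and 2.57 in re-expressing livers. Nr1d2 was thus the more abundant REV-ERB RNA in every control liver, and Nr1d1 was the more abundant in every re-expressing liver. Nr1d1 made up 41.8 ± 4.74% of the REV-ERB TPM in control livers, 47.7 ± 3.33% in DKO-labelled livers and 66.1 ± 5.65% in re-expressing livers (SD, n = 4 in each). These shares do not separate intact from deleted forms of the RNA.

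The mean log2 ratio of Nr1d1 to Nr1d2 was 1.11 higher in re-expressing livers than in DKO-labelled livers and 1.45 higher than in control livers, each with an exact permutation p of 0.0286. Between DKO-labelled livers and control livers it differed by 0.35 (exact permutation p = 0.0571). Over the 9 ratio tests made here, Benjamini-Hochberg adjustment gave 0.0643 for each of the first 2 and 0.103 for the last. With 9 tests of 4 against 4 livers, none reached an adjusted p under 0.05.

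Nr1d1 over Thra was the steadiest of the ratios in control livers, where it lay between 8.26 and 8.72. Thra had 76 to 89 reads in these livers, for which counting alone gives a coefficient of variation of 11.0%. The narrow range thus does not show that the 2 genes vary together. Nr1d1 over Thra was 8.53 ± 0.198 in control livers, 8.61 ± 0.882 in DKO-labelled livers and 18.8 ± 2.49 in re-expressing livers (SD, n = 4 in each). The log2 ratio differed by 0.01 between DKO-labelled livers and control livers (exact permutation p = 0.914), and by 1.12 between re-expressing livers and DKO-labelled livers (exact permutation p = 0.0286, adjusted over 9 tests 0.0643). The sign of the first of these turned without control liver 3 or without DKO-labelled livers 2, 3 or 4, to between -0.042 and -0.0039. Nr1d2 over Thra was 12.1 ± 2.50, 9.41 ± 0.528 and 9.71 ± 2.50 in the 3 groups, and the exact permutation p of its comparisons ran from 0.0857 to 1.

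No pair of the 3 genes passed the test for varying together within groups. Deviations from the group means over all 12 livers gave a Pearson r of -0.49 (permutation p = 0.154) and a Spearman rho of -0.46 (permutation p = 0.163) between Nr1d1 and Nr1d2. Between Nr1d1 and Thra, r was 0.39 (permutation p = 0.288) and rho 0.47 (permutation p = 0.219), and between Nr1d2 and Thra, r was -0.32 (permutation p = 0.355) and rho -0.27 (permutation p = 0.449). Adjusted over the 3 pairs, the p of r was 0.355 for each pair, and the p of rho was 0.328, 0.328 and 0.449. Without the 2 livers farthest from the median of the first gene, r was -0.32, 0.40 and 0.16 in the same order, so the sign for Nr1d2 and Thra rested on those livers. With TPM rescaled by size factors, r was -0.68 between Nr1d1 and Nr1d2 (permutation p adjusted over the 3 pairs 0.103) and 0.61 between Nr1d1 and Thra (adjusted permutation p = 0.114).

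The 36 nuclear receptor genes tested, of 49 on the list, set these levels in context. In control livers Nr1d2 was at rank 7 by mean TPM and Nr1d1 at rank 9. Hnf4a, a master regulator of hepatocyte genes, was the highest at 448 TPM. Thra was at rank 26, below the other thyroid hormone receptor Thrb at rank 15, which had 35.1 ± 3.62 TPM in control livers and 31.5 ± 2.51 TPM in DKO-labelled livers (SD, n = 4 in each). In re-expressing livers Nr1d1 moved to rank 5 and Nr1d2 stood at rank 8. Neighbours in this order often differed by less than their spread, as Nr1d1 at 68.7 ± 5.53 TPM and Nr1i3 at 64.8 TPM did in control livers.

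**Figure D4:**
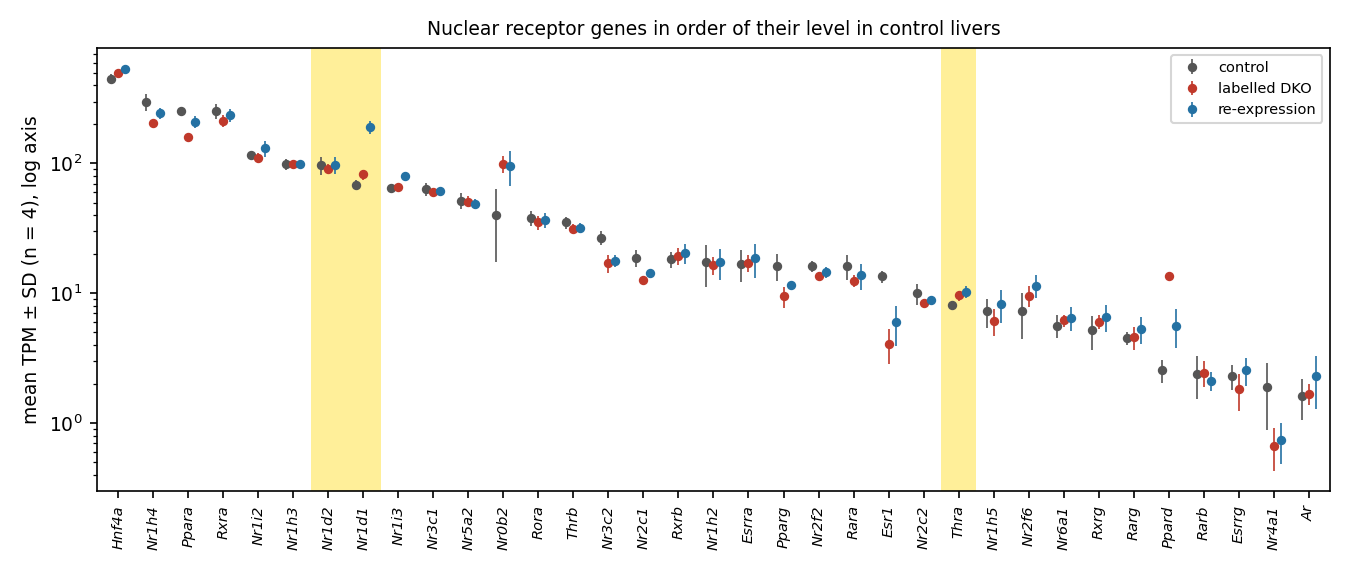
Mean TPM ± SD (n = 4 livers) of 35 nuclear receptor genes on a log axis, in order of their level in control livers, with Nr1d1, Nr1d2 and Thra on yellow bands. Nr1d1 is at 68.7 TPM in control livers, 82.5 TPM in DKO-labelled livers and 191 TPM in re-expressing livers.

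Of these 36 receptors, limma on log2(TPM + 1) called 1, Nr1d1, between re-expressing livers and DKO-labelled livers. An unadjusted p under 0.05 was found for 6 of them, against 6.19% of all genes tested. With voom, which is limma on the recovered reads, 1 was called higher and 1 lower. Between DKO-labelled livers and control livers 2 were called higher and 7 lower, against 2.99% and 2.34% of all genes tested. Nr1d1, Nr1d2 and Thra were not among the receptors called. Without control livers 1 and 2 these counts were 1 and 4. The median difference over the 36 was -0.06, against 0.00 over all genes tested. Ppard, a lipid-sensing receptor, rose from 2.56 to 13.6 TPM (log2 difference 2.04; limma, adjusted p = 9.56e-05). Esr1, estrogen receptor alpha, fell from 13.5 to 4.05 TPM (log2 difference -1.54; limma, adjusted p = 0.00151), and Ppara, the fatty acid receptor of liver, fell from 256 to 160 TPM (log2 difference -0.67; limma, adjusted p = 0.000394).

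Genes known as REV-ERB targets were called between DKO-labelled livers and control livers, where Nr1d1 and Nr1d2 themselves were not. Of 6 clock genes with ROR elements, 5 were higher and 1 lower in DKO-labelled livers than in control livers, with a median difference of 2.34 on the log2 scale. Over all genes tested, 2.99% were called higher and 2.34% lower. Arntl, which encodes BMAL1, rose from 0.728 ± 0.205 to 19.8 ± 1.27 TPM (SD, n = 4; log2 difference 3.60; limma, adjusted p = 1.37e-08), and Npas2, which encodes a partner paralogous to CLOCK, rose from 0.0713 to 13.0 TPM (log2 difference 3.70; limma, adjusted p = 3.25e-07). On this scale the size of both depends on the pseudocount, since the control livers are near 0, and with a pseudocount of 0.1 the differences were 4.62 for Arntl and 6.40 for Npas2. Between re-expressing livers and DKO-labelled livers, where Nr1d1 rose, 1 of the 6 was called lower and none higher, with a median of -0.37 against 0.01 over all genes tested. With voom 2 of the 6 were called lower, and 5 had an unadjusted p under 0.05 by limma. Limma called 0.0446% of all genes tested lower in that comparison, and 6.19% had an unadjusted p under 0.05. Against control livers, 5 of the 6 were called higher in re-expressing livers and 1 lower, with a median of 1.71. Of all genes tested, 1.16% were called higher and 0.663% lower there. Arntl was at 15.1 ± 1.09 TPM in re-expressing livers (SD, n = 4). These lists were drawn up with earlier results of these data known, so their direction is not independent evidence.

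Nr1d1 and Nr1d2 are themselves driven through E-boxes and D-boxes, and other clock genes of that kind were set beside them. Of 13 tested, 7 were called lower and none higher in DKO-labelled livers than in control livers, with a median of -0.35. Among all genes tested, 2.34% were called lower and 2.99% higher there. Wee1, a cell cycle kinase under clock control, fell from 29.7 to 9.13 TPM (log2 difference -1.58; limma, adjusted p = 0.00016), and Usp2, a deubiquitinase under clock control, fell from 41.4 to 22.7 TPM (log2 difference -0.84; limma, adjusted p = 0.00168). Nr1d1 and Nr1d2 had differences of 0.26 and -0.09 there, neither of them called. None of the 13 was called between re-expressing livers and DKO-labelled livers by limma on either scale, log2(TPM + 1) or recovered reads with voom. An unadjusted p under 0.05 by limma was found for 5 of the 13, against 6.19% of all genes tested.

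Among 10 tested genes for corepressors and tethering partners of REV-ERB, 1 was called lower in DKO-labelled livers than in control livers, both by limma and with voom. By limma, 2.34% of all genes tested were called lower there. Between re-expressing livers and DKO-labelled livers none of the 10 was called by limma or with voom. Among them 1 had an unadjusted p under 0.05, against 6.19% of all genes tested. Among 7 tested genes for the turnover of REV-ERB protein, none was called in any of the 3 comparisons by limma or with voom. Of these 7, 2 had an unadjusted p under 0.05 between DKO-labelled livers and control livers, against 18.4% of all genes tested. None of the 7 had one in the comparisons with re-expressing livers. Without control livers 3 and 4, 1 was called lower in DKO-labelled livers.

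For Thra the related genes were those of thyroid hormone signalling. Of 11 thyroid hormone receptors and partners, none was called in any of the 3 comparisons by limma or with voom, and 2, 0 and 2 had an unadjusted p under 0.05 in DKO-labelled livers against control, re-expressing against DKO-labelled and re-expressing against control livers. The shares over all genes tested were 18.4%, 6.19% and 12.5% in that order. Thrb differed by -0.15 between DKO-labelled livers and control livers (log2; limma, adjusted p = 0.45). Of 11 tested genes for hormone transport and deiodination, 3 were called higher and 2 lower in DKO-labelled livers than in control livers. Without control livers 1 and 2, or without control livers 3 and 4, 2 were called higher and 1 lower. With all livers, 2.99% of all genes tested were called higher and 2.34% lower. Dio1, the deiodinase that makes active hormone in liver, went from 166 ± 47.9 TPM in control livers to 34.0 ± 4.65 TPM in DKO-labelled livers (SD, n = 4; log2 difference -2.22; limma, adjusted p = 0.000212). In re-expressing livers Dio1 was at 73.8 ± 23.4 TPM, 1.06 above the DKO-labelled livers, which was not called (limma, adjusted p = 0.176).

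Of 15 tested genes that thyroid hormone is known to regulate in liver, 2 were called lower in DKO-labelled livers than in control livers and none higher, with a median difference of -0.25, while voom called 3 lower. They were Dio1 and Cpt1a, the rate-limiting enzyme of mitochondrial fatty acid uptake, which fell from 261 to 168 TPM (log2 difference -0.64; limma, adjusted p = 0.00274). Thra itself differed by 0.23 in the same livers without being called. Of all genes tested, 2.34% were called lower in this comparison.

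Some marker genes of liver cell types were called between DKO-labelled livers and control livers. In that comparison 2.99% of all genes tested were called higher and 2.34% lower, and 18.4% had an unadjusted p under 0.05. Of 8 hepatocyte markers 3 were called higher, with a median difference of 0.32, none without control livers 1 and 2 and 4 without control livers 3 and 4. The summed TPM of 8 stellate cell markers was 144 to 194 in control livers and 230 to 259 in DKO-labelled livers, with 3 of 8 called higher, and 1 of 8 without control livers 1 and 2. In re-expressing livers it was 193 to 249 TPM. The sum of 7 sinusoidal endothelium markers was 187 to 214 and 227 to 284 in the same groups, with none of 7 called by limma or with voom and 5 at an unadjusted p under 0.05, and it was 153 to 227 TPM in re-expressing livers. Red blood cell markers summed to 276 to 382 and 400 to 687 TPM, with none of 5 tested genes called by limma, 1 called with voom and 5 at an unadjusted p under 0.05. In re-expressing livers they summed to 373 to 835 TPM, and against control livers none was called by limma, 1 with voom, and 4 had an unadjusted p under 0.05. Between re-expressing and control livers 12.5% of all genes tested had such a p. Cholangiocyte markers summed to 74.5 to 105, 76.7 to 86.1 and 79.4 to 106 TPM in control, DKO-labelled and re-expressing livers. These sums overlapped, but 1 of the 4 tested was called higher than in control livers in each of the other groups, by limma and with voom. Kupffer cell markers summed to 387 to 912, 404 to 465 and 344 to 968 TPM, which also overlapped. None of the 8 was called by limma or with voom in any comparison, and 1 had an unadjusted p under 0.05, between re-expressing and control livers. The part of cell composition in the levels of Nr1d1, Nr1d2 and Thra was not tested.

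The genes around each REV-ERB gene were examined for changes shared with it. Of the 10 nearest tested protein-coding genes of Nr1d1, 5 on each side within 312558 bases, none was called by limma or with voom in the comparisons with re-expressing livers, where 1 had an unadjusted p under 0.05 against DKO-labelled livers and 2 against control livers. Over all genes tested, 6.19% and 12.5% had such a p in these comparisons. The differences of these 10 genes between re-expressing livers and DKO-labelled livers ran from -0.76 to 0.11, against 1.20 for Nr1d1. Whether the reads behind the rise of Nr1d1 came from this locus or from an introduced copy was not tested. Between DKO-labelled livers and control livers 1 of the 10 was called, Srsf3-ps, with a difference of 1.00 (limma, adjusted p = 0.0235), which was not called without control liver 2 (0.89), control liver 3 (0.93), or DKO-labelled liver 1, 2 or 4 (0.97, 1.00 and 1.01). Of all genes tested, 5.33% were called in that comparison. Srsf3-ps is named as a copy of Srsf3, so its reads are uncertain. Msl1, the nearest of these 10 genes to Nr1d1, has its start site 20183 bases from that of Nr1d1. The 10 nearest tested protein-coding genes of Nr1d2 include Thrb at a gap of 165963 bases. None of these 10 was called by limma or with voom in any of the 3 comparisons. None had an unadjusted p under 0.05 by limma, and their differences ran from -0.60 to 0.43.

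**Figure D5:**
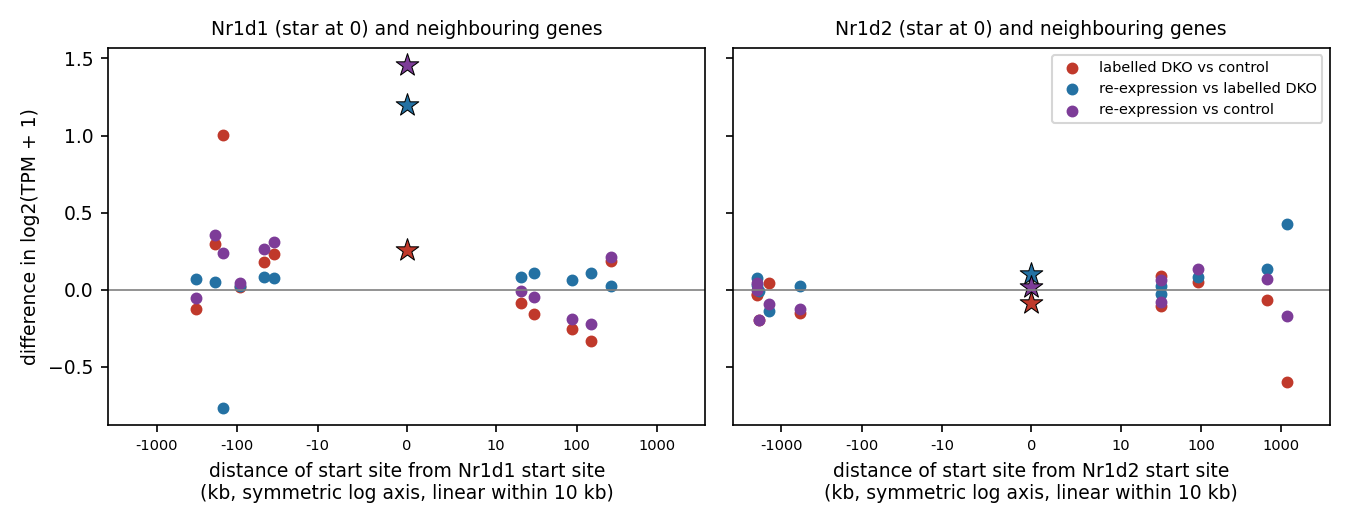
Differences in log2(TPM + 1) of the 10 nearest tested genes by distance of their start site from that of Nr1d1 (left) or Nr1d2 (right). The left panel also holds the overlapping gene Thra. The axis is symmetric log in kb, with a star for the REV-ERB gene itself and a colour for each comparison. The stars of Nr1d1 at 1.20 and 1.46 stand above all of its neighbours.

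The genes most like each of the 3 over the 12 livers were picked by Pearson r of log2(TPM + 1), as a description without a test, since all genes share libraries and groups. Nr1d1 was most like Atp8b5 with r of 0.89, and then Nr1i3, the nuclear receptor CAR, and Praf2, both at 0.88, and it was least like Slc38a4, an amino acid transporter, at -0.84. Nr1d2 was most like Cd2ap at 0.96 and Bmi1, a Polycomb component, at 0.95, and least like Rprl3 at -0.92. Thra was most like Cops9, a subunit of the COP9 signalosome, at 0.98, and least like mt-Nd2, a mitochondrially encoded subunit of complex I, at -0.94. Among themselves, r was 0.67 for Nr1d1 and Thra, 0.04 for Nr1d1 and Nr1d2, and -0.22 for Nr1d2 and Thra.

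The authors' deposited table also held fold changes of their own. In its comparison 1, whose values across 11403 genes followed the difference between DKO-labelled livers and control livers with r of 0.925, Nr1d1 had a log2 fold change of 0.26 (authors' SE 0.161, authors' adjusted p = 0.383), Nr1d2 had -0.09 (adjusted p = 0.747) and Thra had 0.26 (adjusted p = 0.403), per the DESeq2 columns. In comparison 2 of the authors' deposited table, which followed re-expressing livers against DKO-labelled livers with r of 0.881, the DESeq2 columns gave Nr1d1 1.20 (adjusted p = 1.31e-10), Nr1d2 0.09 (adjusted p = 0.999) and Thra 0.08 (adjusted p = 0.999). Genes are not independent replicates, and these correlations served only to identify the columns.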

How the data were processed

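RNA was measured in 12 livers at zeitgeber time 10, in 3 groups of 4. The libraries were of stranded total RNA, as the labels' protocols state. The submitters' processing notes name build mm10, STAR 2.7.1a, featureCounts 2.0.1 and DESeq2 1.36.0, besides SAMtools 1.9 and bcl2fastq 2.17. The strand setting was not found in the material used. The authors deposited TPM values and, for 3 unnamed comparisons, log2 fold changes with p-values; per the file headers the authors' columns also hold a Wald score and a signal, the mean normalized count. Comparison 3 is not used here, and some genes of the lists are not reported here.

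In each library, TPM times gene length (less 199 bases) came in whole steps, to within 0.01 reads for 100% of values. Whole reads recovered this way gave the depth of 5621667 to 6906221 reads and served in voom, an alternative.

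limma 3.58.1 in R 4.3.3 was fitted to log2(TPM + 1) of the 17957 genes at or above 1 TPM on average, with 3 group means, 9 residual degrees of freedom, a variance trend and two-sided Benjamini-Hochberg adjustment at 0.05. It was tested on simulated data. A difference on this scale understates the change of low genes. Counting errors cover reads only. Single values and ratios had exact two-sided permutation tests, correlations 100000 permutations within groups, in Python 3.11.15 with scipy 1.17.1. P-values measure the spread between these livers. Members and gene lists were chosen with earlier results of these data known. The text names the 3 genes, listed genes, the 5 nearest tested genes on each side, and the 5 most and 3 least alike. Of 17957 tested genes, 17530 had a GENCODE M21 identifier. RefSeq promoter windows covered Nr1d1 and Nr1d2, and Thra is named only. Alternatives were other pseudocounts, filters and scalings, sample weights, a robust prior, 8 libraries, a replicate block, voom, and each library left out. Leaving out control livers 1 and 2, or 3 and 4, was added after seeing the data, and for Nr1d2 that choice fixed the direction of the shift.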

Additional observations from a re-analysis of the deposited data

Results flagged for a closer look

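Ppara, the fatty acid receptor gene of liver, was at 268 TPM in the second control liver, against 250.6 to 253.0 TPM in the other 3. This liver stood apart from its group by more than the 95% critical value of Dixon's test for 4 samples. No value of Nr1d1, Nr1d2 or Thra did. Of 51 groups checked 1 held such a liver, and chance gives about 1 in 20.

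The authors' deposited table gave Nr1d1 a mean normalized count of 1214, while the mean over these 12 libraries with size factors was 774. The ratio of 1.57 was the largest of 7007 genes with an authors' mean of at least 100, whose median ratio was 0.972 and of which 1% lay below 0.854 and 1% above 1.11. For Nr1d2 the ratio was 1.00 and for Thra 0.995. The samples behind the authors' mean are not given in the sources used here.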

How the results depend on the processing

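Across 225 alternative values of the 9 differences of Nr1d1, Nr1d2 and Thra, 219 kept their direction and their side of the threshold. In some alternatives only the p-value could change and not the difference. These were other filters, the robust prior, 8 libraries, the replicate block, and leaving out livers of the group not compared. Nr1d1 was called in re-expressing livers under every alternative run, at 1.14 to 1.25 against DKO-labelled livers (limma, highest adjusted p = 0.00839) and 1.39 to 1.51 against control livers (limma, highest adjusted p = 0.000765). The 6 that turned were all of Nr1d2 and never called: 0.11 between DKO-labelled livers and control livers without control livers 1 and 2, and, between re-expressing and control livers, -0.024 with sample weights, -0.17 without control livers 3 and 4, and -0.084 to 0.086 with single livers left out, turning for control livers 3 (-0.056) and 4 (-0.039) and re-expressing liver 1 (-0.084). Of 90 ratio alternatives 6 turned: Nr1d1 over Thra between DKO-labelled livers and control livers (-0.042 to 0.079 with single livers left out, turning at -0.0087, -0.0052, -0.042 and -0.0039), and Nr1d2 over Thra between re-expressing livers and DKO-labelled livers (-0.15 to 0.10, turning at -0.023 and -0.15). No correlation changed sign with a pseudocount of 0.1 or size factors, the 2 alternatives run for them, and none passed the test (lowest adjusted permutation p = 0.103). Counts of genes called depended more on the processing. Higher and lower in DKO-labelled livers against control livers were 537 and 421 genes, 328 and 231 with 8 libraries, 182 lower without control livers 1 and 2 and 644 lower without control livers 3 and 4, and 332 to 524 and 241 to 414 with single livers left out. Re-expressing livers against DKO-labelled livers gave 5 and 8, 13 and 23 with sample weights, 12 and 22 with voom, 9 higher with 8 libraries, 11 and 8 higher without control livers 1 and 2 or 3 and 4, and 1 to 7 and 4 to 8 with single livers left out. Re-expression against control livers gave 208 and 119, 115 and 47 with 8 libraries, 234 lower with voom, 58 lower without control livers 1 and 2, and 125 to 203 and 50 to 129 with single livers left out. With the replicate block, 3 genes were higher and 5 lower in re-expressing livers than in DKO-labelled livers, and 64 lower than in control livers. Livers of the same replicate number had correlations of -0.07 to -0.02 in the 2 comparisons with DKO-labelled livers. Between re-expressing and control livers these correlations were 0.04 to 0.14, and each liver was nearest its own number. Whether livers of these 2 groups were paired is thus not settled. The block changed no call of the 3 genes. The cause was not tested. Thra, at 76 to 129 reads a library, is limited by depth.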
